A study of Mus musculus with 12 samples.

Results

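Interferon response genes were read in the lateral septum of mice after an injection of CFA or saline, as a list of 33 genes chosen by name and found by gene symbol in a table of 54532 genes. All 33 symbols were in the table, and all 33 had the coordinates and strand of the GENCODE M21 annotation on GRCm38 (mm10). The lateral septum is a forebrain nucleus of mostly inhibitory neurons, and RNA of brain tissue from it was measured by bulk RNA sequencing. The CFA group held 6 libraries and the saline group 6 libraries, and the libraries of both groups were labelled WT and day 3. CFA commonly stands for complete Freund's adjuvant, an oil emulsion with killed mycobacteria that provokes lasting inflammation where it is injected, and saline is the control injection. The labels used here give no strain, sex, age, site of injection or transgene. Nor do they say that each library is a different animal: every p-value below is read against the spread of these samples, part of which may be technical. Inflammatory pain and the protein TIA1 of microglia are the subjects of the series by its title, and the stated design looks for genes that differ between the groups.

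Interferons are secreted proteins by which cells warn each other of viruses and other threats. Type I interferons bind the receptor pair Ifnar1 and Ifnar2, whose kinases Jak1 and Tyk2 phosphorylate transcription factors such as Stat2. With Irf9, Stat2 is part of the complex ISGF3, which binds interferon-stimulated response elements (ISRE) in the promoters of antiviral genes, while type II interferon works through gamma-activated sites (GAS). In brain, microglia, endothelial cells, astrocytes and neurons can all transcribe such genes.

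Promoters of members are shown first, because interferon acts on many such genes through these elements. RefSeq promoters on GRCm38.p6, each running from 250 bases before to 50 bases after a start site, were found for 27 of the 33 genes; Dhx58, Ifi27, Mx1, Parp14, Rtp4 and Usp18 are named only. The ISRE core searched was GAAA, any pair of bases, then GAAA, on both strands (on the other strand TTTC, any pair of bases, then TTTC), and overlapping matches were counted. It was present for 16 of the 27 genes, against 3.99% of the 27025 genes with a promoter in the same table. The GAS pattern TTCNNNGAA, which reads the same on both strands, was present for 8 of the 27 genes, against 9.55% of the 27025 genes. A match is a description of letters in this window, not of binding. The 200 bases before the start site are printed below, 5′ to 3′ on the gene's own strand, with ISRE cores in capitals. The first 3 are IFIT genes, Isg15 holds the most overlapping cores, and Gbp3 and Oasl2 had the smallest p-values of the members past the expression filter.
Ifit1, chr19:34640689-34640888, plus strand: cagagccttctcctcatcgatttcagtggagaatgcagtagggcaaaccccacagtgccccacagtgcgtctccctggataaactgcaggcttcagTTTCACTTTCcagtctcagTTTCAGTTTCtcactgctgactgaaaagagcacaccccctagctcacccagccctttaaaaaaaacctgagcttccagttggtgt
Ifit3, chr19:34583329-34583528, plus strand: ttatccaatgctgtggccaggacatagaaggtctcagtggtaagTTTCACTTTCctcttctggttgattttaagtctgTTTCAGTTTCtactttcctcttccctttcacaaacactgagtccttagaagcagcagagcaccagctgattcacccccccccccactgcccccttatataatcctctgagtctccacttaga
Ifit3b, chr19:34607757-34607956, plus strand: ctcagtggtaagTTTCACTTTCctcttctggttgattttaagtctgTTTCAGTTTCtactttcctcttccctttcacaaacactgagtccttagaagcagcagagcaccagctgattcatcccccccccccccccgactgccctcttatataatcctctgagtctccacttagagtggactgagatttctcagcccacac
Isg15, chr4:156200819-156201018, minus strand: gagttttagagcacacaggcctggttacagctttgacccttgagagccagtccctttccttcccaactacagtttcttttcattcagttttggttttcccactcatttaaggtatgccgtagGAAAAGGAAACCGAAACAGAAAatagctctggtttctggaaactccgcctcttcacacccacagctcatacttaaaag
Gbp3, chr3:142559844-142560043, plus strand: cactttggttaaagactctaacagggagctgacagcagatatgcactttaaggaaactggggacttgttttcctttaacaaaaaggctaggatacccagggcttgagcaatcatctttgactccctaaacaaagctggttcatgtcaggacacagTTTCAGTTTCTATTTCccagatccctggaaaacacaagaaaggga
Oasl2, chr5:114896734-114896933, plus strand: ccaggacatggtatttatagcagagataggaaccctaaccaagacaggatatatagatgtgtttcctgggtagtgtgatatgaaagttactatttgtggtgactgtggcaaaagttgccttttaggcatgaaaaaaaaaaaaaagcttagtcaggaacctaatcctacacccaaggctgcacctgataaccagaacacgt
Ifit3 and Ifit3b share both cores, with TTTCACTTTC and TTTCAGTTTC in the same order. Isg15 holds 3 overlapping cores between 78 and 57 bases before its start site. Gbp3 has a second start site in the table with no core before it, and the window of Oasl2 holds none.

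Depth was alike in the groups, at 35.5 to 39.2 M recovered reads per CFA library and 33.6 to 38.4 M per saline library. Choroid plexus RNA stood apart in saline 3 and saline 5. Ttr, the thyroid hormone carrier of the choroid plexus, measured 2259 FPKM (fragments of a gene divided by its length and by the reads of the library) in saline 3 and 701 FPKM in saline 5. It was at 66.6 FPKM in saline 1 and at 44.5 FPKM or less elsewhere. Xist, the RNA of the inactive X chromosome, was above 1 FPKM in 5 CFA libraries (all but CFA 3) and in saline 2 and saline 5. Lateral septum neuron markers were present in both groups, with 7 of 8 past the expression filter and sums of 385 to 471 FPKM in CFA and 411 to 501 FPKM in saline libraries. These differences between libraries are set beside the results they touch.

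The CFA against saline comparison asked whether interferon response genes differed at day 3. No member passed the test, which was limma on log2(FPKM + 1) with Benjamini-Hochberg adjustment over 13345 genes and a threshold of 0.05. The whole comparison called 0.03% of the genes tested, 4 in number, and 0.015% of them as higher in CFA. Most members nevertheless had a higher mean in the CFA group, with small differences, and the saline libraries formed a low set and a high pair. By the mean over the members tested, saline 2, 4, 5 and 6 lay below every CFA library, saline 1 lay within the CFA range and saline 3 above it. In bulk RNA, fewer cells of a type and less RNA per cell cannot be told apart.

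Of the 33 members, 18 had at least 1 FPKM in at least 6 libraries and entered the test. Among these, 11 met that filter in all 6 saline libraries, while 7 relied in part on the CFA libraries; Oasl2 met it with 4 CFA and 2 saline libraries. Those 18 were therefore not drawn without regard to group, and 12 of the 33 averaged under 1 FPKM in both groups. The difference, CFA minus saline, was above 0 for 17 of the 18, against 48% of all genes tested, with a median log2 fold change of 0.24 against -0.00427 for all genes tested. Without the filter it was above 0 for 30 of the 33, against 50.5% of 34499 genes, with a median of 0.22; Irf1, Ifi35 and Xaf1 were the exceptions. Fold changes are differences of mean log2(FPKM + 1), a scale that makes changes of low genes look smaller. At an unadjusted limma p under 0.05, 3 of the 18 were higher in CFA (Oasl2, Gbp3 and Irf9), against 3.11% of all genes tested. On the recovered reads, with limma's voom, 0 members passed, against 0.0375% of genes tested, and 6 were higher in CFA at an unadjusted p under 0.05, against 3.18%; the smallest adjusted p was 0.356.

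**Figure D1:**
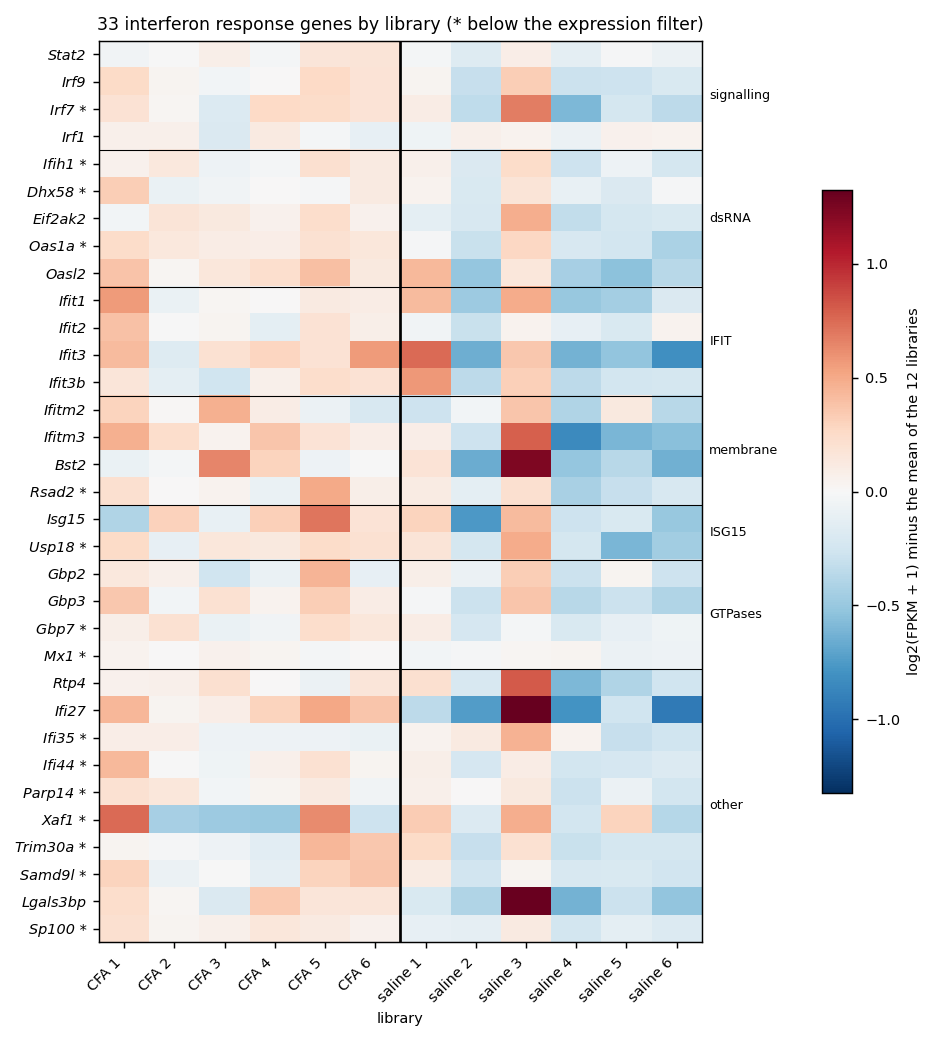
Each row is 1 of the 33 genes and each column 1 library, CFA left and saline right; color gives log2(FPKM + 1) minus that gene's mean over the 12 libraries, and an asterisk marks genes below the expression filter. Saline 2, 4, 5 and 6 are mostly blue, while saline 3 is red in most rows and saline 1 in the IFIT rows other than Ifit2.

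Signalling and transcription factors were represented by Stat2, Irf9, Irf7 and Irf1. Irf9 (chromosome 14, 55603571 to 55610030), the DNA-binding subunit of ISGF3, had 2.28, 2.63 and 3.04 FPKM as lowest, median and highest in CFA libraries, against 1.72, 1.85 and 3.20 FPKM in saline libraries. Saline 3 was above every CFA library, saline 1 lay within the CFA range, and the other 4 saline libraries lay below every CFA library. Its mean was 2.66 ± 0.334 FPKM in CFA and 2.14 ± 0.588 FPKM in saline (SD, n = 6 each), a log2 fold change of 0.23 (SE 0.11) with a limma adjusted p of 0.648. Stat2 (chromosome 10, 128270559 to 128292849), the partner of Irf9 in that complex, had 2.68, 2.90 and 3.27 FPKM in CFA libraries, against 2.37, 2.67 and 3.03 FPKM in saline libraries. The groups overlapped, with saline 3 again the highest of its group (log2 fold change 0.11, SE 0.06, limma adjusted p = 0.71). Irf7, the factor that amplifies type I interferon production, was below the filter, with 0.642, 1.12 and 1.22 FPKM in CFA libraries and 0.228, 0.52 and 1.98 FPKM in saline libraries. Its highest value was that of saline 3, and 4 saline libraries were below every CFA library. Irf1, which acts at promoters of both interferon types, had 0.783, 1.06 and 1.22 FPKM in CFA libraries, against 0.934, 1.10 and 1.13 FPKM in saline libraries. The saline range of Irf1 lay inside that of CFA, and its fold change was -0.03 (limma adjusted p = 0.956).

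Double-stranded RNA sensors and effectors included Oasl2, which had the smallest p of the members past the filter. This gene (chromosome 5, 114896936 to 114912234), a 2′-5′ oligoadenylate synthetase-like protein, measured 1.35, 0.841, 1.01, 1.12, 1.39 and 0.982 FPKM in CFA 1 to CFA 6. In saline 1 to saline 6 it measured 1.44, 0.272, 1.02, 0.336, 0.242 and 0.404 FPKM. Saline 1 was thus the highest of the 12 libraries, saline 3 lay within the CFA range, and the other 4 saline libraries were below every CFA library. Its log2 fold change was 0.43 (SE 0.16, 95% interval 0.08 to 0.78), with a limma unadjusted p of 0.0185 and an adjusted p of 0.54. The size depends on the scale: the log2 fold change of Oasl2 was 0.99 with a pseudocount of 0.1, 0.82 on TPM and 1.17 with voom, none past the threshold. Eif2ak2, the kinase PKR that halts translation on binding double-stranded RNA, had 1.32, 1.54 and 1.80 FPKM in CFA libraries, against 0.901, 1.06 and 2.32 FPKM in saline libraries. Saline 3 held the highest value and the other 5 saline libraries lay below every CFA library (log2 fold change 0.20, limma adjusted p = 0.739). Ifih1, the cytoplasmic sensor MDA5, had 0.522, 0.697 and 0.848 FPKM in CFA libraries, against 0.32, 0.458 and 0.89 FPKM in saline libraries. Dhx58, the sensor LGP2, had 0.239, 0.312 and 0.646 FPKM in CFA libraries, against 0.144, 0.264 and 0.476 FPKM in saline libraries. Saline 3 was the highest saline library for both sensors, and neither reached the filter. Oas1a, which makes the 2′-5′ oligoadenylates that switch on RNase L, had 0.541, 0.606 and 0.721 FPKM in CFA libraries, against 0.0873, 0.24 and 0.753 FPKM in saline libraries. Here too saline 3 alone exceeded the CFA libraries; the gene had 6 to 54 reads per library and a fold change of 0.31 (SE 0.10). Without the filter its limma unadjusted p was 0.0106 and the adjusted p 0.736, and 32.4% of its windows of 150 bases also occurred in transcripts of Oas1g.

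The IFIT genes Ifit2, Ifit3, Ifit3b and Ifit1 lie in that order between 34550694 and 34650009 on chromosome 19 and encode proteins that recognise foreign RNA, alone or as partners, and hinder its translation. Ifit3 had 2.50, 3.68 and 4.83 FPKM in CFA libraries, against 1.24, 1.65 and 5.64 FPKM in saline libraries. Saline 1 held the highest value of all, saline 3 came next in its group at 4.05 FPKM, and the remaining 4 were below every CFA library. Its mean was 3.74 ± 0.789 FPKM in CFA and 2.63 ± 1.80 FPKM in saline (SD, n = 6 each), a log2 fold change of 0.50 (SE 0.25, limma adjusted p = 0.682). Ifit1 had 1.20, 1.44 and 2.46 FPKM in CFA libraries, against 0.649, 0.882 and 2.28 FPKM in saline libraries. CFA 1 stood above its group, and saline 1 and saline 3, at 2.14 and 2.28 FPKM, stood above theirs (log2 fold change 0.24, limma adjusted p = 0.813). Ifit2 had 1.84, 2.22 and 3.06 FPKM in CFA libraries, against 1.54, 1.94 and 2.20 FPKM in saline libraries. It differed from its neighbours in that saline 1 and saline 3 did not stand apart, and its fold change was 0.19 (SE 0.09, limma adjusted p = 0.663). Ifit3b had 0.998, 1.60 and 1.81 FPKM in CFA libraries, against 0.892, 1.04 and 2.56 FPKM in saline libraries. Its saline 1 and saline 3 were above every CFA library (log2 fold change 0.09, limma adjusted p = 0.94). Reads may be split between copies, since 18.5% of the windows of Ifit3 and 16% of those of Ifit3b occurred in the other gene.

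Membrane-associated antiviral proteins included Ifitm3, which with Ifi27 had the highest FPKM of the list. Ifitm3 (chromosome 7, 141009586 to 141010770), which blocks fusion of viruses with endosomes, had 17.9, 20.2 and 24.5 FPKM in CFA libraries, against 9.25, 12.8 and 30.8 FPKM in saline libraries. Saline 3 exceeded every CFA library, saline 1 at 18.5 FPKM reached the low end of the CFA range, and the other 4 lay below it. The mean was 20.7 ± 2.50 FPKM in CFA and 15.9 ± 8.00 FPKM in saline (SD, n = 6 each), a log2 fold change of 0.46 (SE 0.22, limma adjusted p = 0.658). Bst2 (chromosome 8, 71534255 to 71537456), the tetherin that holds budding virions at the cell surface, had 4.18, 4.47 and 7.67 FPKM in CFA libraries, against 2.50, 3.08 and 12.0 FPKM in saline libraries. Saline 3 again stood alone at the top, with CFA 3 next (log2 fold change 0.25, SE 0.28, limma adjusted p = 0.875). Ifitm2, a close relative of Ifitm3, had 1.80, 2.36 and 3.50 FPKM in CFA libraries, against 1.45, 1.92 and 3.19 FPKM in saline libraries. Its groups overlapped widely (log2 fold change 0.19, limma adjusted p = 0.795), and 23.5% of its windows also occurred in Gm45717. Rsad2, the antiviral enzyme viperin, stayed below the filter, with 0.588, 0.759 and 1.39 FPKM in CFA libraries and 0.254, 0.494 and 0.944 FPKM in saline libraries. Saline 2, 4, 5 and 6 were below every CFA library for Rsad2, and CFA 5 was the highest.

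Of the ISG15 system, Isg15 (chromosome 4, 156199424 to 156200818) encodes a ubiquitin-like protein joined to target proteins, and Usp18 the protease that removes it and damps the type I receptor. Isg15 had 1.77, 3.31 and 4.95 FPKM in CFA libraries, against 1.14, 2.08 and 3.87 FPKM in saline libraries. Saline 3 and saline 1, at 3.87 and 3.46 FPKM, lay within the CFA range, and CFA 1 was the lowest CFA library. Isg15 averaged 3.21 ± 1.09 FPKM in CFA and 2.37 ± 1.07 FPKM in saline (SD, n = 6 each), a log2 fold change of 0.34 (SE 0.21, limma adjusted p = 0.761). Usp18 had 0.463, 0.781 and 0.884 FPKM in CFA libraries, against 0.041, 0.34 and 1.22 FPKM in saline libraries. The values of Usp18 rest on 4 to 122 reads per library, and saline 3 was above every CFA library.

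Interferon-induced GTPases were low. Gbp3 (chromosome 3, 142560026 to 142573209), of the guanylate-binding proteins that coat the vacuoles of pathogens, had 1.43, 1.76 and 2.18 FPKM in CFA libraries, against 0.882, 1.04 and 2.20 FPKM in saline libraries. Saline 3 was level with the highest CFA library, saline 1 was level with the lowest, and the other 4 saline libraries lay below every CFA library. Its mean was 1.80 ± 0.304 FPKM in CFA and 1.26 ± 0.503 FPKM in saline (SD, n = 6 each), a log2 fold change of 0.33 (SE 0.13) with a limma unadjusted p of 0.0195 and an adjusted p of 0.55. Gbp2, of the same family and the same cluster, had 1.04, 1.44 and 2.34 FPKM in CFA libraries, against 1.02, 1.42 and 2.08 FPKM in saline libraries. Those groups had nearly the same median and range (log2 fold change 0.06, limma adjusted p = 0.946). Gbp7 averaged 1.03 ± 0.184 FPKM in CFA and 0.793 ± 0.149 FPKM in saline (SD, n = 6 each) and was below the filter. Mx1, a dynamin-like antiviral GTPase, had at most 13 reads in a library and was listed at 0 in saline 5.

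**Figure D2:**
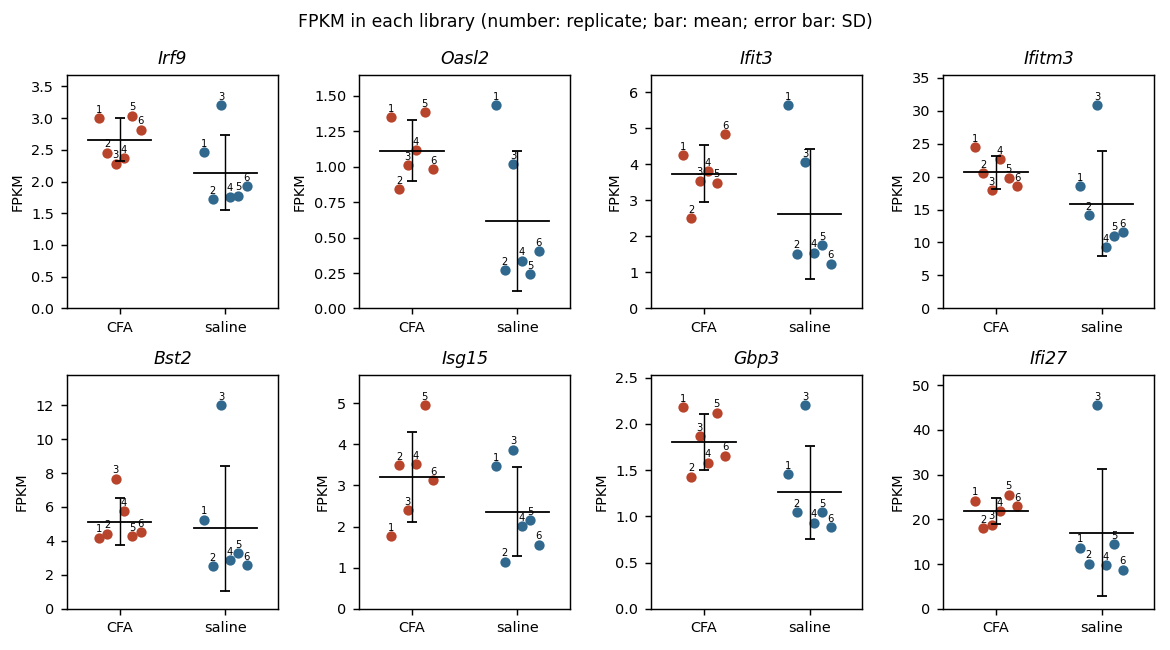
FPKM of 8 members in each library, CFA left and saline right in every panel; points carry the replicate number, bars are means and error bars SD. Saline 2, 4, 5 and 6 sit below most CFA points in every panel. Saline 3 lies above these libraries in every panel, and saline 1 in every panel but that of Ifi27.

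Of the other interferon-induced genes, Ifi27 (chromosome 12, 103434211 to 103440239), a small interferon-inducible membrane protein, had the widest spread in saline. It measured 24.2, 18.1, 18.8, 21.8, 25.5 and 23.0 FPKM in CFA 1 to CFA 6. In saline 1 to saline 6 it measured 13.6, 10.1, 45.5, 9.72, 14.5 and 8.73 FPKM. Every saline library but saline 3 lay below every CFA library, and saline 3 was far above them all. The mean was 21.9 ± 2.95 FPKM in CFA and 17.0 ± 14.1 FPKM in saline (SD, n = 6 each), a log2 fold change of 0.58 (SE 0.30, limma adjusted p = 0.695). With saline 3 left out, the log2 fold change of Ifi27 was 0.91 (limma adjusted p = 0.021). That passes the threshold, in a comparison that called 0.0824% of genes tested. Saline 3 held the highest value of this gene, so leaving it out raises the difference by construction. The p without it is therefore no independent support. Lgals3bp, a secreted glycoprotein that binds galectin-3, had 6.93, 9.14 and 10.5 FPKM in CFA libraries, against 4.87, 6.17 and 21.5 FPKM in saline libraries. It had the same shape, with 5 saline libraries below every CFA library and saline 3 above all (log2 fold change 0.24, limma adjusted p = 0.873; without saline 3, 0.53 and 0.113). Rtp4, a receptor-transporting protein that also limits viruses, had 1.35, 1.59 and 1.86 FPKM in CFA libraries, against 0.641, 1.11 and 3.36 FPKM in saline libraries. Its highest value was again that of saline 3 (log2 fold change 0.14, limma adjusted p = 0.904).

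The last 7 members of this group were below the filter. Sp100, a nuclear body protein, averaged 0.611 ± 0.0766 FPKM in CFA and 0.391 ± 0.124 FPKM in saline (SD, n = 6 each), and 5 saline libraries lay below every CFA library. Without the filter its log2 fold change was 0.22 (SE 0.07), with the smallest limma unadjusted p of the list, 0.00636, and an adjusted p of 0.697. Without the filter 6 members were at an unadjusted limma p under 0.05 (Sp100, Oas1a, Oasl2, Gbp3, Ifi44 and Samd9l), against 2.74% of genes higher in CFA at that p. Ifi44 had 0.269, 0.365 and 0.772 FPKM in CFA libraries, against 0.116, 0.148 and 0.409 FPKM in saline libraries. Samd9l, an antiviral factor of the SAMD9 family, had 0.668, 1.01 and 1.34 FPKM in CFA libraries, against 0.517, 0.566 and 0.95 FPKM in saline libraries. For both, saline 2, 4, 5 and 6 lay below every CFA library. Trim30a, a tripartite-motif protein, and Parp14, a mono-ADP-ribosyltransferase, had log2 fold changes of 0.20 and 0.14 with overlapping groups. Ifi35 and Xaf1, a pro-apoptotic partner of XIAP, ran the other way, at -0.04 and -0.10. Xaf1 split the libraries in its own manner: it was at 2.70 and 2.38 FPKM in CFA 1 and CFA 5 and 0.561 to 0.813 FPKM in the other CFA libraries. In saline 1, 3 and 5 it was at 1.77, 2.07 and 1.69 FPKM, and in the other saline libraries at 0.69 to 0.939 FPKM.

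**Figure D3:**
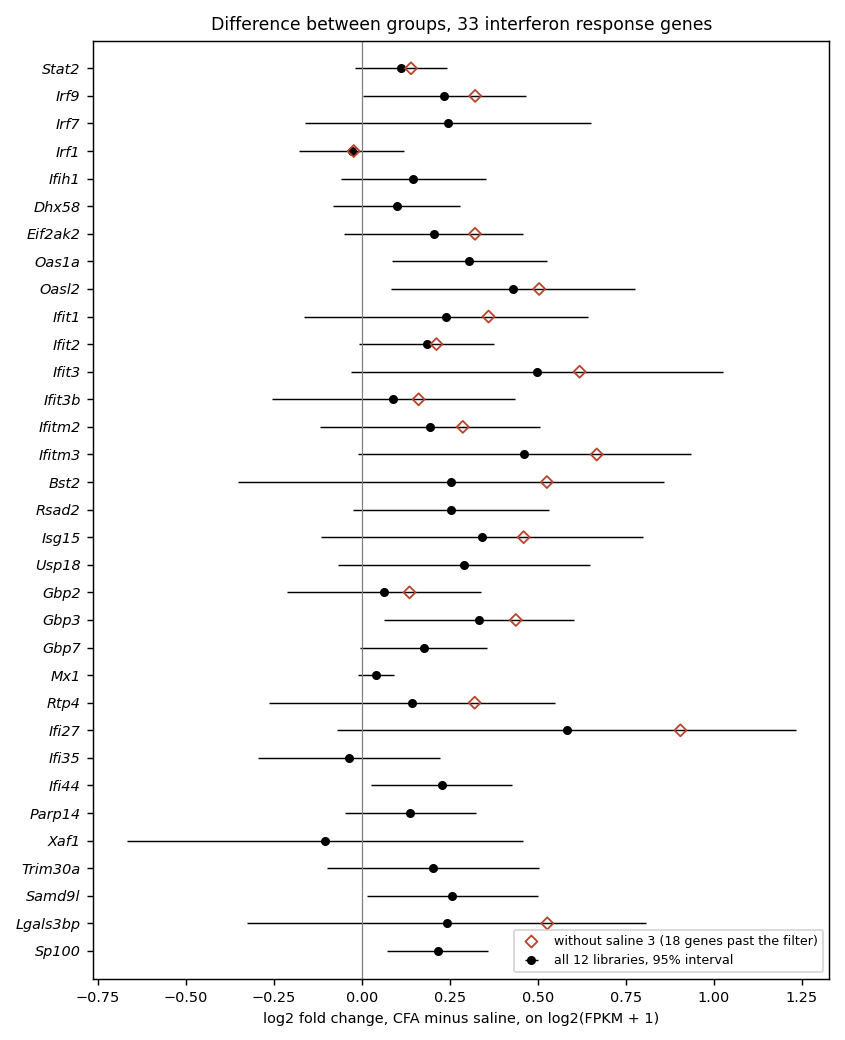
Log2 fold change of each of the 33 genes (CFA minus saline), with its 95% interval over all 12 libraries (points) and without saline 3 for the 18 genes past the filter (open diamonds). Nearly all points lie right of 0 with intervals that mostly reach 0, and all diamonds but that of Irf1 lie right of 0.

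A score per library, the mean over the 18 genes past the filter of the deviation of log2(FPKM + 1) from the 12-library mean, summarised which libraries stood high. It was 0.20, 0.03, 0.07, 0.13, 0.22 and 0.12 in CFA 1 to CFA 6. In saline 1 to saline 6 it was 0.11, -0.35, 0.51, -0.42, -0.26 and -0.36. The CFA libraries lay close together (0.13 ± 0.07, SD, n = 6), and the saline libraries did not (-0.13 ± 0.37, SD, n = 6). The difference of the group means was 0.25, and the score was not tested, since the members were chosen with results known. Saline 3 ranked above all other libraries, saline 1 lay between CFA 6 and CFA 3, and saline 5, 2, 6 and 4 took the last 4 places. Over all 33 genes the same 4 saline libraries were below every CFA library. In each of the 7 role groups, too, 4 saline libraries scored below every CFA library.

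The spread within saline was larger than within CFA for 24 of the 33 members on the log2(FPKM + 1) scale, against 28.4% of all genes tested. For 20 of the 33, at least 4 saline libraries lay below every CFA library, against 2.68% of genes tested. No member had groups that did not overlap, against 0.495% of genes tested. Counted by library, saline 2 was below every CFA library for 26 of 33 members, saline 4 for 27, saline 5 for 26 and saline 6 for 27. The shares of all genes tested for these libraries were 9.82%, 10.1%, 8.43% and 9.74%. Counts over the 33 include genes below the filter, while the shares are of genes past it. Over the 18 members past the filter the counts were 15, 15, 12 and 15 for saline 2, 4, 5 and 6. Saline 1 was below every CFA library for 7 members (11.9% of genes tested) and saline 3 for 0 (11.1% of genes tested). Saline 3 was the highest saline library for 24 members, against 16.9% of genes tested, and above every CFA library for 14, against 12% of genes tested. Saline 1 was the highest of its group for 6 members, against 22.4% of genes tested, and second for 20, against 14.5%.

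Saline 1 and saline 3 differed in which members were high. For the membrane group the score was 0.65 in saline 3 and 0.03 in saline 1, and for the other interferon-induced genes 0.50 in saline 3 and 0.04 in saline 1. For the IFIT group it was 0.30 in saline 3 and 0.42 in saline 1. Ifi27 was 3.33 times as high in saline 3 as in saline 1, Lgals3bp 3.13 times and Bst2 2.28 times. Ifit3 was 0.718 times, Oasl2 0.709 times and Ifit3b 0.771 times as high in saline 3 as in saline 1. These ratios compare single libraries and have no replicate check.

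**Figure D4:**
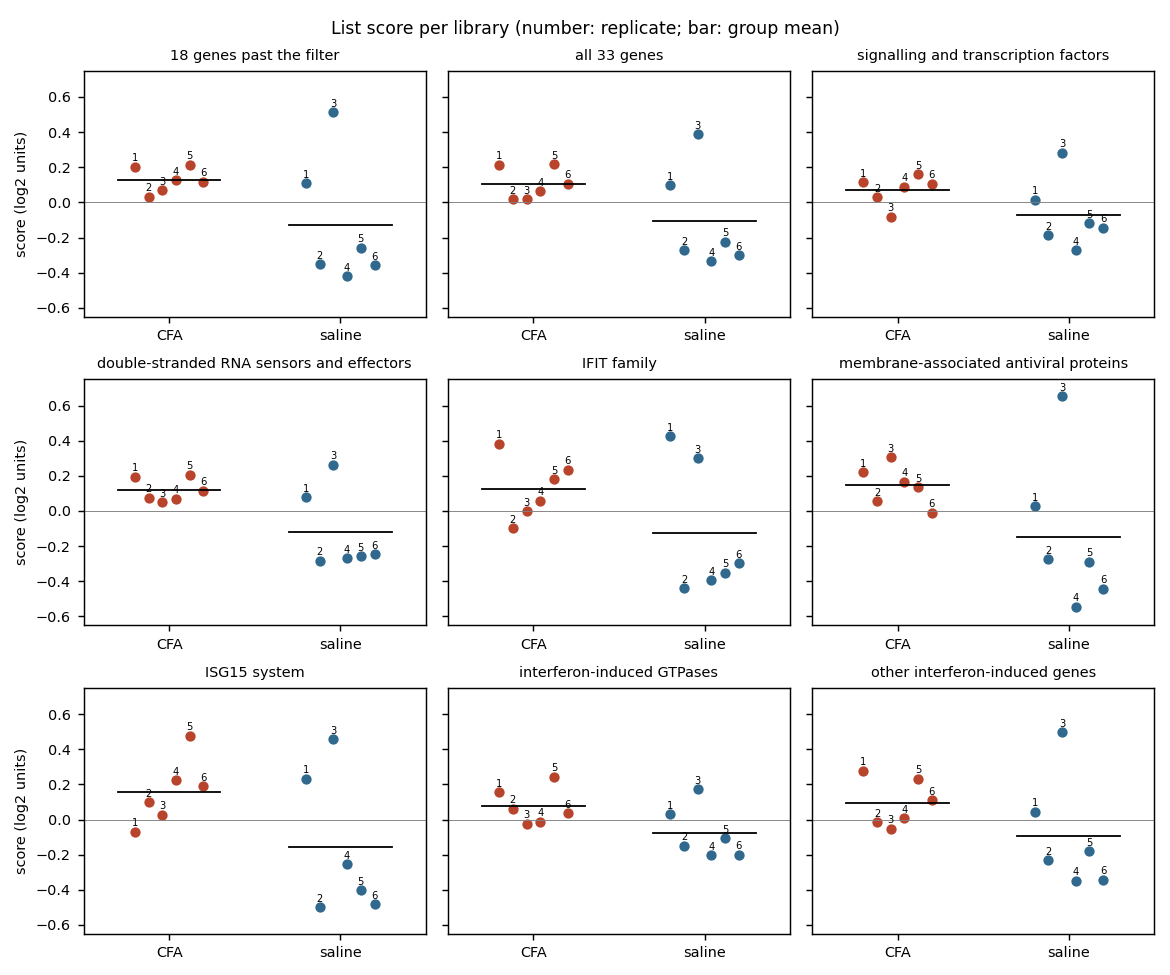
Score per library for the 18 genes past the filter, for all 33 and for each of the 7 role groups, CFA left and saline right; points carry the replicate number and bars are group means. In every panel 4 saline libraries, 2, 4, 5 and 6, lie below all CFA libraries, while saline 3 and saline 1 lie among or above them.

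Cell-type markers and library differences are set beside this pattern, and no cause was tested. Microglia and macrophage markers, of which 13 of 14 passed the filter and none was at 0 in every library, summed to 181 to 231 FPKM in CFA and 166 to 190 FPKM in saline libraries. With the mean of those markers as a covariate, the median log2 fold change of the 18 genes was 0.14, with 14 above 0, against 49.5% of genes tested. At an unadjusted limma p under 0.05, 0 were higher in CFA, against 2.9%. These markers themselves ran higher in CFA, so the covariate can take up part of any group difference. Saline 3, the highest in interferon score, had a microglia sum of 176 FPKM, within the range of the saline group. Choroid plexus markers, 3 of 10 past the filter and none at 0 in every library, summed to 20.1 to 63.4 FPKM in CFA and 19.6 to 2377 FPKM in saline libraries. Saline 3 held the highest sum and the highest interferon score. Saline 5, with the next sum of 743 FPKM, had a score of -0.26, and saline 1, at 84.4 FPKM, had 0.11. Saline 2, 4 and 6, at 19.6, 24.7 and 23.2 FPKM, had scores of -0.35, -0.42 and -0.36. With those markers as a covariate the median was 0.35, with 12 of 18 genes at an unadjusted limma p under 0.05 higher in CFA, against 3.49% of genes tested. The covariate is highest in saline 3, so this fit overlaps with leaving saline 3 out. Endothelial markers, 11 of 12 past the filter and none at 0 in every library, summed to 98.4 to 115 FPKM in CFA and 103 to 117 FPKM in saline libraries; with them as a covariate the median was 0.31. Markers of border macrophages and monocytes summed to 1.82 to 3.33 FPKM in CFA and 1.96 to 3.10 FPKM in saline libraries, with 0 of 8 past the filter. Those of lymphocytes and neutrophils summed to 0.329 to 2.74 FPKM in CFA and 0.273 to 1.88 FPKM in saline libraries, with 0 of 10 past the filter. In saline 1 to saline 6 these sums were 1.88, 0.81, 1.68, 0.775, 0.312 and 0.273 FPKM. In CFA 1 to CFA 6 they were 2.74, 0.648, 1.32, 0.329, 1.67 and 1.80 FPKM. Of these 10 genes, 6 were below 0.1 FPKM in every library. Erythroid markers, 5 of 6 past the filter and none at 0 in every library, summed to 78.9 to 668 FPKM in CFA and 157 to 334 FPKM in saline libraries. Striatal projection neuron markers, 8 of 8 past the filter, summed to 86.7 to 394 FPKM in CFA and 102 to 207 FPKM in saline libraries, with the highest sums in CFA 1, CFA 6, saline 1 and CFA 5. Oligodendrocyte markers, 8 of 8 past the filter, summed to 1130, 2051, 1778, 2432, 2696 and 1431 FPKM in CFA 1 to CFA 6. In saline 1 to saline 6 they summed to 854, 2034, 1418, 1968, 2226 and 1910 FPKM. Astrocyte markers, 10 of 10 past the filter, summed to 679 to 822 FPKM in CFA and 786 to 847 FPKM in saline libraries. Neuron markers, 8 of 8 past the filter, summed to 825 to 965 FPKM in CFA and 862 to 980 FPKM in saline libraries. For lists not used as a covariate, their part in the result was not tested.

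Left-out libraries set the size of the difference. Without saline 3 the median log2 fold change of the 18 genes was 0.34, and 14 of 18 were higher in CFA at an unadjusted limma p under 0.05, against 3.17% of genes tested. Without saline 1, 5 of 18 were, against 3.22% of genes tested. Without saline 3 and saline 5, the libraries with Ttr above 500 FPKM, the median was 0.34. There, 10 of 18 were at that p, against 3.39% of genes tested. Ifi27 had a log2 fold change of 0.99 and a limma adjusted p of 0.0138, in a comparison that called 0.045%. Saline 3 had the highest score over these same genes, so leaving it out, in either fit, raises the difference by construction. In the libraries with Xist, 5 CFA against saline 2 and saline 5, both of them low, the median was 0.44, and 14 of 18 were at that p, against 1.81% of genes tested. In the libraries without it, CFA 3 against saline 1, 3, 4 and 6, the median was 0.14, with 11 of 18 above 0, against 51.5% of genes tested, and 0 at that p, against 4.34%. That fit has 1 CFA library, which is assumed to vary like the saline libraries. The libraries without Xist include both of the high saline libraries and also saline 4 and saline 6, the lowest by score. Ddx3y, a gene of the Y chromosome, was at 13.9 to 15.4 FPKM in the same 5 libraries and near 0 elsewhere. Xist was above 1 FPKM in 5 CFA and 2 saline libraries. By Xist and Ddx3y those libraries read as female and the others as male. Sex and group therefore go partly together and cannot be fully told apart.

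**Figure D5:**
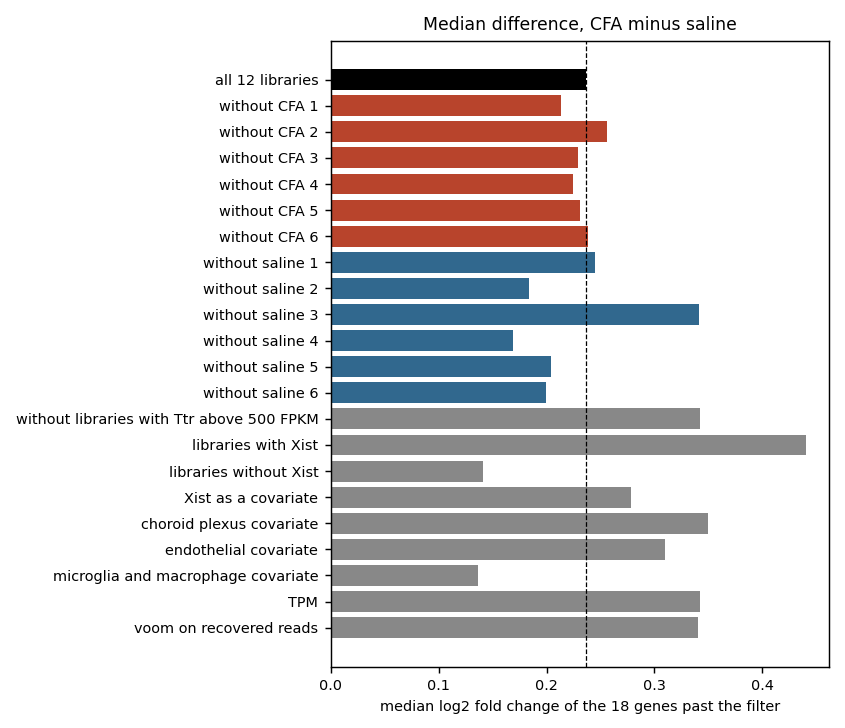
Median log2 fold change of the 18 genes past the filter, CFA minus saline, over all 12 libraries (black, dashed line) and with single libraries left out, library subsets, covariates or other units. Every bar lies right of 0, between 0.14 and 0.44, and of the single libraries saline 3 moves the median most, to 0.34.

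The wider interferon pathway showed where reads were too few to compare. Of 21 interferon ligand genes, 17 had 0 reads in every library. Over all 12 libraries Ifnk had 20 reads, Ifnb1 and Ifnab 3 each and Ifng 1, so that no difference was detectable at this depth. The receptors and their kinases were expressed in both groups, with 9 of 10 tested, 0 past the threshold, 3 above 0 and a median log2 fold change of -0.03. Among the smallest p-values there were those of Ifngr2 (-0.12, limma adjusted p = 0.691), a chain of the type II receptor, and the kinase Jak2 (0.10, 0.813). Of 16 genes for nucleic acid sensing upstream of interferon, 8 were tested, with 4 above 0, a median of -0.00054 and 0 past the threshold. Tbk1, the kinase that activates Irf3, was at 0.08, the adaptor Myd88 at 0.09 and the ubiquitin ligase Traf3 at -0.08. Of 9 negative regulators 6 were tested, with 3 above 0, a median of 0.02 and 0 past the threshold. Samhd1, a nucleotide hydrolase, was at 0.10, the RNA editor Adar at 0.07 and Irf2 at 0.04. Trex1, a DNA exonuclease of that list, was listed at 0 in every library.

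A further 64 interferon-induced genes that are not members were listed for comparison, and 20 of them were tested. Of these, 14 were above 0, against 48% of genes tested, with a median log2 fold change of 0.13. At an unadjusted limma p under 0.05, 6 were higher in CFA, against 3.11% of genes tested, and 0 passed the threshold. Lgals9, the secreted lectin galectin-9, averaged 3.38 ± 0.391 FPKM in CFA and 2.42 ± 0.448 FPKM in saline (SD, n = 6 each), a log2 fold change of 0.36 (SE 0.09, limma adjusted p = 0.236). Igtp, an immunity-related GTPase, averaged 2.23 ± 0.339 FPKM in CFA and 1.46 ± 0.503 FPKM in saline (SD, n = 6 each), a log2 fold change of 0.41 (limma adjusted p = 0.377). Ifi30, a lysosomal thiol reductase, averaged 2.06 ± 0.465 FPKM in CFA and 1.42 ± 0.498 FPKM in saline (SD, n = 6 each), a log2 fold change of 0.34 (limma adjusted p = 0.58). The score of these 20 genes placed the same 4 saline libraries, 2, 4, 5 and 6, below every CFA library. This list, too, was chosen with earlier results known and was read in the same 12 libraries. It is therefore no independent support. Over all 64, 52 were above 0 without the filter, against 50.5% of genes, with a median of 0.11.

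Some members share exon sequence with other annotated genes, and no source used here says whether reads were counted by strand. Exons of Irf7, Irf1, Dhx58, Eif2ak2, Usp18, Gbp2 and Ifi35 overlap a gene on the opposite strand, so reads of the pairs cannot be told apart if strand was not used. Irf9, Ifitm2, Gbp7, Rtp4, Parp14 and Sp100 overlap a gene on their own strand.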

How the data were processed

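Libraries were made from Trizol RNA and sequenced as paired reads of 150 bases on an Illumina NovaSeq, per the labels' protocols. HISAT2 2.0.5 and the build mm10 are named in the submitters' processing notes; for the read counter, strand and annotation, "not given in the sources used here" applies. Per gene and library the authors deposited FPKM, with a gene length per gene. Reads were recovered from the steps of FPKM times length, and 100% of the recovered values were whole to within 0.01 read; depth per library is their sum. Another table holds 6 columns that matched no sample and were not used.

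Groups come from the labels. Genes with at least 1 FPKM in at least 6 libraries were tested with limma 3.58.1 (R 4.3.3) as two-sided moderated tests of log2(FPKM + 1) with a variance trend (eBayes), and Benjamini-Hochberg adjustment covered all 13345 genes. FPKM is not a count, so voom on recovered reads was an alternative only. The fit was tested on simulated data. Members and lists were chosen with earlier results of these data known, so the list has no test of its own. All members are named; in each role group the lowest, median and highest value per group are given for up to 3 members of highest level and the one of smallest p, and for others where space allowed. Of each other pathway list, up to 3 tested genes of smallest p are named, of which 1 is not reported here. Alternatives covered the pseudocount, filter, unit, scaling, variance model, replicate block, covariates and left-out libraries. Shared sequence was counted as windows of 150 bases of a member's longest coding transcript found in another gene's transcripts in GENCODE M21. Other work was done in Python 3.11.15 with numpy 2.4.6, pandas 2.3.3 and matplotlib 3.10.9.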

Additional observations from a re-analysis of the deposited data

Results flagged for a closer look

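Within groups of 6 libraries, 92 groups of members, named pathway genes and list scores were examined for a library far from its neighbour. Far means a gap large relative to the whole range, and 8 groups were picked out. Chance alone picks about 1 in 20 if values are normal and groups independent. These groups share libraries, so that rate is only a rough guide. Members made up 66 of the groups and 7 of those picked out.

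Saline 3 stood apart from the other saline libraries for 5 members: Ifi27 at 45.5 FPKM, Lgals3bp at 21.5 FPKM, Bst2 at 12.0 FPKM, Eif2ak2 at 2.32 FPKM and Sp100 at 0.626 FPKM. Saline 3 also held the highest Ttr, 2259 FPKM, and the part of that difference in these values was not tested. In the CFA group, CFA 1 was high for Ifit1 at 2.46 FPKM and CFA 2 was low for Usp18 at 0.463 FPKM. Among genes that are not members, CFA 4 stood apart for Jak2 at 9.25 FPKM.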

How the results depend on the processing

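The members tested kept a positive median log2 fold change under every alternative run, between 0.14 and 0.44 over the 18, 0.22 without the filter and at 0.1 FPKM, 0.46 over the 3 left at 5 FPKM, and between 0.17 (without saline 4) and 0.34 (without saline 3) with 1 library left out. The difference of group scores was 0.20 to 0.38 with 1 library left out. The variance trend and the replicate block cannot change a fold change here, and the filter changes only which members are tested. Those settings are therefore no check on direction. The number of genes past the threshold, 4, became 2 without the filter, without the trend and in libraries without Xist, 8 with the choroid plexus covariate, and 1 with the replicate block, the Xist covariate, the endothelial covariate or libraries with Xist. Leaving out 1 library gave 1 (CFA 6 or saline 5) to 11 (saline 3), with 10 without CFA 1 and 2 without saline 2 or saline 4. Members above 0, 17, became 30 without the filter, 29 at 0.1 FPKM, 3 at 5 FPKM and 11 in libraries without Xist; the filters change how many members are tested. Members at unadjusted limma p under 0.05 and higher in CFA numbered 3 (3.11% of genes tested). They became 6 without the filter (2.74% of genes), on TPM (5.84%) and with voom (3.18%). At 0.1 FPKM (3.44%) and with the endothelial covariate (3.16%) they were 7. With the choroid plexus covariate they were 12 (3.49%), without libraries with Ttr above 500 FPKM 10 (3.39%), and in libraries with Xist 14 (1.81%). At 5 FPKM (2.42%) and with the microglia covariate (2.9%) they were 0. Leaving out 1 library gave 2 to 14 (14 without saline 3, 5 without saline 1), against 2.55% to 5.77% of genes tested. Members past the threshold, 0, became 1, Ifi27, without saline 3 and without libraries with Ttr above 500 FPKM. Both fits leave out saline 3, the library with the highest Ifi27. The range with 1 library left out was 0 to 1.

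Of single members, these changed sign: Irf1 to 0.00759 without CFA 3 (its range with 1 library left out was -0.0553 to 0.00759); Gbp2 to -0.0192 without CFA 5, to -0.0230 with the Xist covariate and to -0.15 with the microglia covariate; Ifit3b to -0.17 and Ifit1 to -0.0025 with the microglia covariate; Ifitm2 to -0.0234 in libraries with Xist. In libraries without Xist the values were -0.34 for Ifit3b, -0.23 for Gbp2, -0.18 for Lgals3bp, -0.0829 for Isg15, -0.0345 for Ifit1 and -0.0055 for Irf9. The cause was not tested. The other values of single members, 492 in number, kept their direction and their side of the threshold. Among them, direction was fixed in advance for the filters, the fit without the trend and the replicate block. By over 1.5 times, 8 of the 18 moved with a pseudocount of 0.1, 9 on TPM and 9 with voom, each away from 0. TPM brought the median of all genes to 0.03, against -0.00427 on FPKM. Same-numbered libraries of the groups deviated together weakly, with correlations of -0.01 to 0.16. Of the CFA libraries, 3 of 6 correlated best with their own number. The labels do not say whether the numbers pair libraries, and these correlations do not settle it. With the replicate block the median of the members was 0.24. That value was fixed in advance, since both groups hold every number. Members under 1 FPKM rest on few reads, down to 0 for Mx1, which limits what these data can show for them.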

Other observations

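Genes of the further interferon-induced list that were below the filter also held values of interest; Ifi203 and Cxcl10 were chosen after their values were seen. Ifi203, a PYHIN-family protein, had 0.312, 0.481 and 1.10 FPKM (lowest, median and highest) in CFA libraries, against 0.0399, 0.119 and 0.295 FPKM in saline libraries. Its groups did not overlap, which held for 1 of the 64 genes of that list and for 0.284% of the 34499 genes with reads, and without the filter its limma unadjusted p was 0.00107 and its adjusted p 0.477. Cxcl10, the chemokine that draws CXCR3-bearing lymphocytes, averaged 0.111 ± 0.0784 FPKM in CFA and 0.00412 ± 0.0101 FPKM in saline (SD, n = 6 each), and it was listed at 0 in 5 saline libraries. It had 59 reads over all 12 libraries, with a limma adjusted p of 0.588 without the filter.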
